A study of Mus musculus with 2 samples.

Results

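The receptors through which the hypothalamus and the stomach address the anterior pituitary were followed in the SOX9iresGFP+ cells of postnatal day 3 (P3) mouse pituitaries. They are *Gnrhr*, *Ghrhr*, *Trhr*, *Crhr1*, *Avpr1b*, *Drd2*, *Ghsr*, *Sstr2*, *Sstr3* and *Sstr5*, chosen by symbol, and all 10 were present among the 31055 features of both libraries. One library holds cells of male pituitaries and the other cells of female pituitaries, and each pooled 3 animals. Both carry the genotype Sox9iresGFP/+, in which GFP is made from the *Sox9* locus, and no treatment is named. Cells were sorted for GFP, which outlasts SOX9 protein. The fraction was made to hold stem cells and their recent progeny, and an endocrine cell is present here only if it passed this gate. The level of a receptor in an endocrine class thus describes the cells that passed this sort and not the whole P3 gland. RNA of eGFP itself was at 5.10 CPM in male gonadotroph-like cells, from a count of 13, against 10.7 CPM in male mesenchymal cells. In females it was at 0 in the 15 gonadotroph-like cells and at 8.67 CPM in mesenchymal cells. A count of 0 in so few female cells allows up to 17.4 CPM, so that a lower level was not shown there. The passage of gonadotroph-like cells through the sort thus cannot be traced from RNA, and its part in the receptor levels was not tested. With 1 library per sex, sex cannot be told apart from animals, sort and library, and no test was made. Below, males and females stand for these 2 libraries.

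These receptors are G protein-coupled and sit on the endocrine cells that each factor commands. The gonadotrophin-releasing hormone (GnRH) receptor and the thyrotrophin-releasing hormone (TRH) receptor signal mainly through Gq and calcium, and the receptors for growth hormone-releasing hormone (GHRH) and corticotrophin-releasing hormone (CRH) through Gs and cyclic AMP. The vasopressin V1b receptor and the ghrelin receptor use Gq. Dopamine and somatostatin act through the Gi-coupled receptors DRD2 and SSTR2, SSTR3 and SSTR5, which restrain secretion.

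The male library contained 10569 barcodes and the female library 5796. After removal of 159 and 85 barcodes by the study's filters, cells with at least 3000 unique molecular identifiers (UMIs, each standing for 1 captured RNA molecule) were classed. These were 7238 male cells with a median of 11888.5 UMIs and 5576 female cells with a median of 9909. Fewer UMIs were held by 3172 male barcodes (30.5%) and 135 female barcodes (2.36%), so that the libraries differed in the share of poor barcodes. The same barcode sequence occurred in both libraries for 19 barcodes. Classes were set by raw UMIs of marker genes, none of them a member. Endocrine classes together comprised 2473 male and 1048 female cells, differentiating *Lef1*+ cells 559 and 440, and *Sox2*+ stem cells 2987 and 3406. Cells that met the marker gates of more than 1 lineage, 283 male (3.91%) and 69 female (1.24%), were set apart, since doublets fall among them. A further 469 and 337 cells met no gate.

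The markers in part bore out the class names. Gonadotroph-like cells (157 male, 15 female), which had *Cga* and at least 2 UMIs of gonadotroph genes, held *Foxl2*, a forkhead factor that took no part in a gate, at 222.5 CPM (UMIs per 1000000 UMIs of the same cells) in males and 202 CPM in females. Melanotroph-like cells (193 and 128), gated on *Pomc* and on *Pax7*, *Pcsk2*, *Oacyl* or *Gulo*, held *Tbx19*, a factor of both *Pomc* lineages outside the gates, at 47.2 and 75.6 CPM. Cells of the *Cga* gate that also passed the *Tshb* gate or had at least 2 *Pou1f1* UMIs (222 and 61) are called the thyrotroph lineage, but 180 male and 46 female ones had 0 UMIs of *Tshb*, the defining thyrotroph hormone. Cells gated on growth hormone mRNA alone went partly against their name. The somatotroph-like class (252 and 253 cells) held the stem cell factor *Sox2* at 420 and 549 CPM and the lineage factor *Pou1f1* at only 144 and 121 CPM. *Pomc*+ cells without melanotroph genes (260 and 166) likewise held *Sox2* at 564 and 533 CPM. Of the *Cga*-gated cells outside the thyrotroph lineage, 646 of 1197 male and 216 of 288 female ones had a UMI of *Sox2*. A UMI of *Lef1* was found in 495 and 182 of them. In these classes the receptors are therefore given by hormone level as well.

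Levels below are UMIs summed over a class in CPM, with exact Poisson 95% intervals in parentheses. Shares of cells with a UMI are also given after each cell was thinned to 5000 UMIs, because deep cells show more genes. Intervals cover counting error only, and a level is not corrected for how well a transcript is captured. Free RNA was gauged in mesenchymal cells, which lack pituitary markers. None of the 10 receptors had a single UMI in 452 male and 272 female mesenchymal cells, with upper 95% bounds of 0.897 and 1.60 CPM for each. Of the mesenchymal cells thinned, 0 of 415 and 0 of 246 had a UMI of a given receptor, which allows a share of up to 0.723% and 1.22%, and their median depths were 8009 and 7625 UMIs. A receptor was called above background in a class if its lower bound exceeded those upper bounds in both libraries, with at least 20 cells in each.

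Receptor RNA was already divided among the endocrine classes at P3, and apart from *Sstr2* it was close to absent from stem cells. Above background were 6 receptors in at least 1 endocrine class (*Gnrhr*, *Ghrhr*, *Trhr*, *Crhr1*, *Drd2* and *Sstr2*), 1 in differentiating cells (*Sstr2*) and 0 in any stem class. By the same rule 29.1% of the 16483 features with at least 20 UMIs were above the mesenchymal level in at least 1 endocrine class, 16.7% in a differentiating class and 26.4% in a stem class. Of the cells with *Sstr2*, 22 of 143 in males and 16 of 60 in females belonged to stem classes. When all endocrine classes were summed and set against all stem classes, 7 of the 7 receptors with at least 20 UMIs were at least 2-fold higher in both libraries. The same fold was met by 9.96% of the 16483 features. Apart from *Sstr2*, these receptors reached the minimum of 20 UMIs through the endocrine cells, with at most 5 stem UMIs in either library. The count of 7 of 7 is therefore a description and not a test. The remaining members, *Avpr1b*, *Ghsr* and *Sstr5*, had 7, 5 and 13 UMIs over both libraries and were too sparse for the fold. At least 1 receptor UMI was found in 753 of 6955 male cells (10.8%) and 210 of 5507 female cells (3.81%) outside the multiple-gate cells. More than 1 receptor was found in 65 and 18 of these cells.

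**Figure D1:**
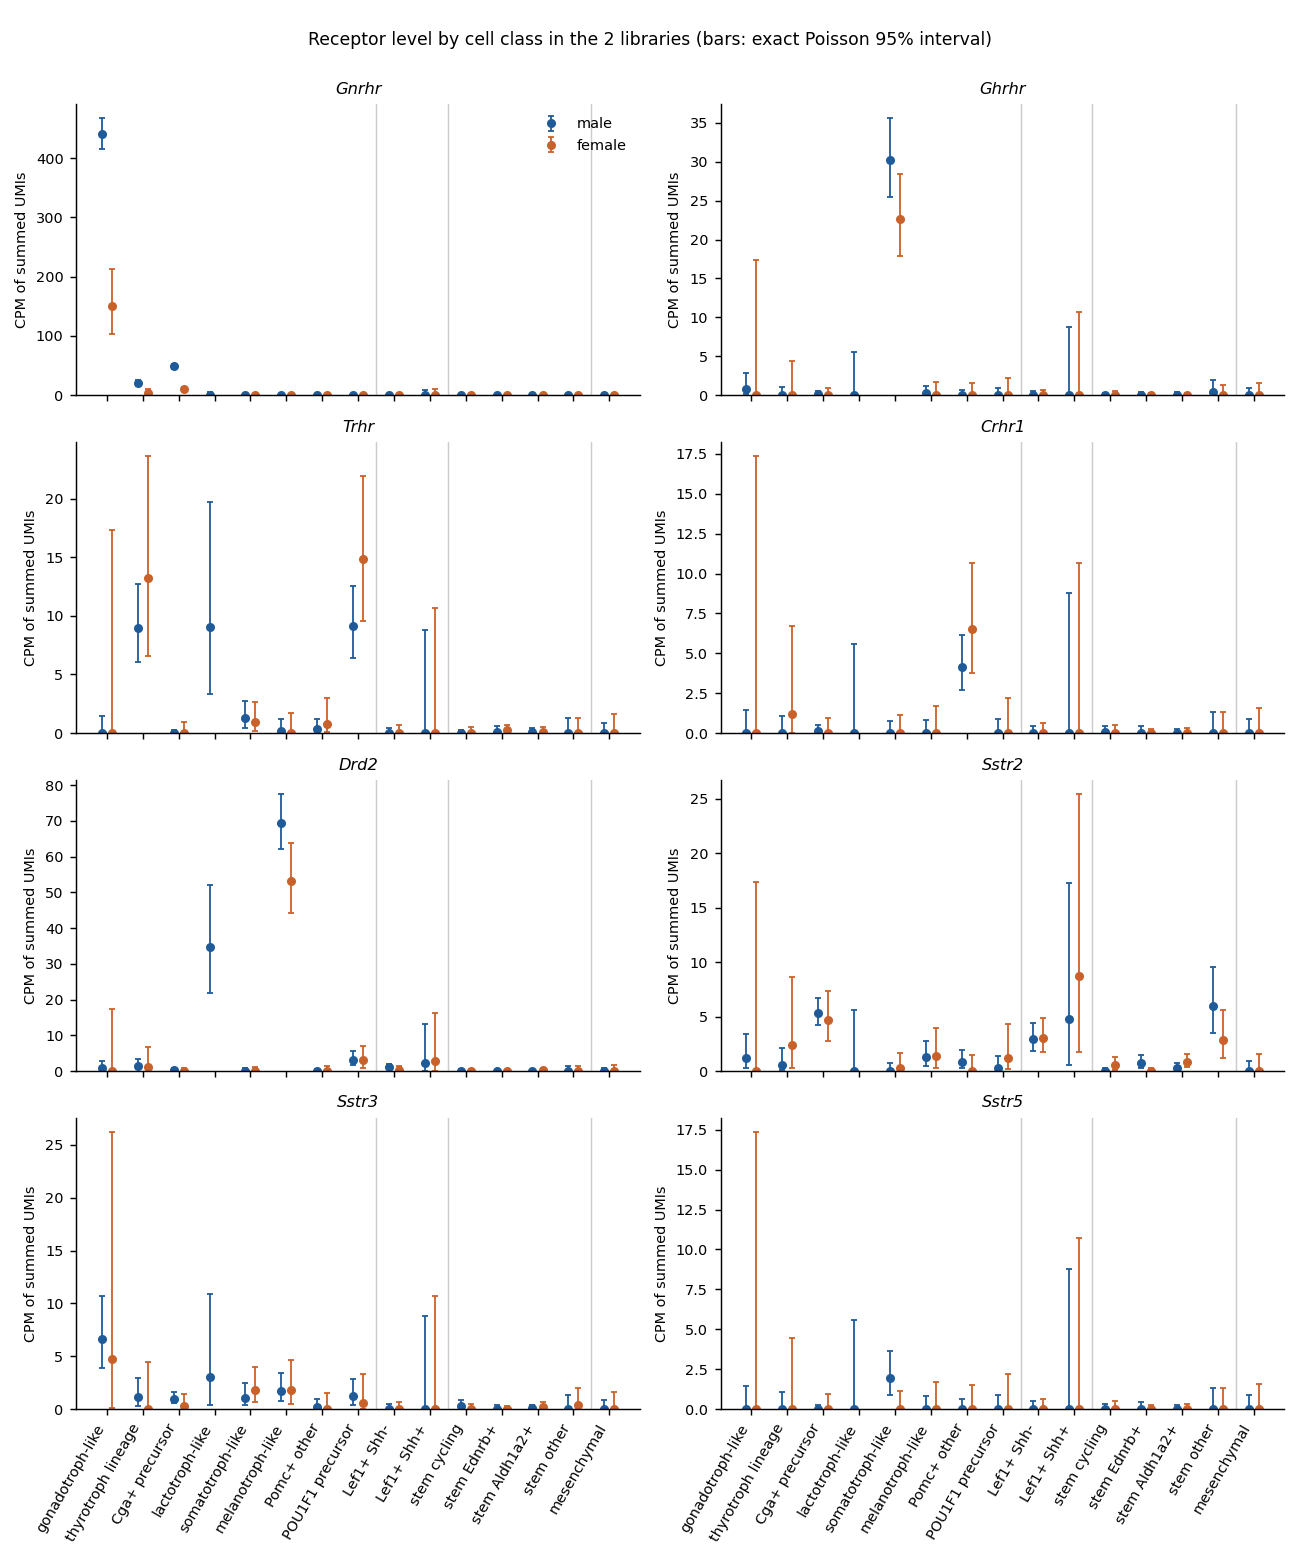
Level of 8 receptors (CPM of summed UMIs) in the cell classes with at least 15 cells, for the male and the female library; bars are exact Poisson 95% intervals. *Gnrhr* peaks in gonadotroph-like cells (441 and 150.5 CPM), *Ghrhr* in somatotroph-like cells (30.2 and 22.7 CPM) and *Drd2* in melanotroph-like cells (69.5 and 53.3 CPM), while the stem classes lie at or near 0 for each of these.

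The GnRH receptor is the one through which hypothalamic pulses drive luteinising and follicle-stimulating hormone. *Gnrhr* (ENSMUSG00000029255, chr5:86180754-86197901, minus strand, mm10) had the most UMIs of the members, 2253 over both libraries. In gonadotroph-like cells its level was 441 CPM (415 to 467) in males, from 1123 UMIs, and 150.5 CPM (103 to 212) in females, from 32 UMIs. A UMI was found in 116 of 157 male cells (73.9%) and 7 of 15 female cells (46.7%). After thinning the shares were 60.5% (52.3 to 68.4, exact Clopper-Pearson 95% interval) and 26.7% (7.79 to 55.1). Positive male gonadotroph-like cells held a median of 8 UMIs and up to 45. Most male gonadotroph-like cells therefore held several molecules of the receptor RNA.

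*Gnrhr* was also present in cells with few or no gonadotroph UMIs. In *Cga*+ precursors, which had the glycoprotein hormone alpha subunit but fewer than 2 UMIs of *Lhb*, *Fshb*, *Nr5a1* and *Tgfbr3l*, the level was 48.4 CPM (44.8 to 52.1) in 1040 male cells and 10.4 CPM (7.41 to 14.1) in 273 female cells. These precursors contained 181 of the 358 male *Gnrhr*-positive cells and 14 of the 26 female ones. Most positive cells of the *Cga*+ precursor and gonadotroph-like classes together were rich in *Cga*. In males 167 had 100 to 299 *Cga* UMIs and 109 had 300 or more, against 14 with 30 to 99. In females these numbers were 8, 8 and 2. The name precursor thus does not show that the positive cells are early ones. The thyrotroph lineage, which also makes *Cga*, held 70 UMIs in only 8 of 222 male cells and 3 UMIs in 1 of 61 female cells. Differentiating cells held 2 male UMIs and 0 female UMIs, and stem cells 3 and 1. Endocrine cells as a whole exceeded stem cells 591-fold (202 to 2868) in males and 183-fold (31.8 to 7308) in females, on stem counts of 3 and 1 UMIs.

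Within the *Cga* gate, *Gnrhr* followed the amount of *Cga*. Cells of the *Cga*+ precursor and gonadotroph-like classes were divided by raw *Cga* UMIs at 10, 30, 100 and 300. In the male library *Gnrhr* stood at 0.845, 3.00, 13.2, 142 and 351 CPM from the lowest to the highest bin. In the female library the values were 1.41, 0.850, 2.39, 56.3 and 222 CPM. The step was thus at about 100 *Cga* UMIs in both. Below 30 *Cga* UMIs the share of cells with *Gnrhr* was at most 2.33%, and at 300 or more it was 74.1% in males and 66.7% in females. *Sox2* went in the other direction, from 376 CPM in the lowest male bin to 66.1 CPM in the highest, and from 412 CPM to 0 in females. The median cell of the lowest and the highest bin had 12476 and 17170 UMIs in males and 12541 and 16154 in females, and the part of depth in the bins was not tested.

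**Figure D2:**
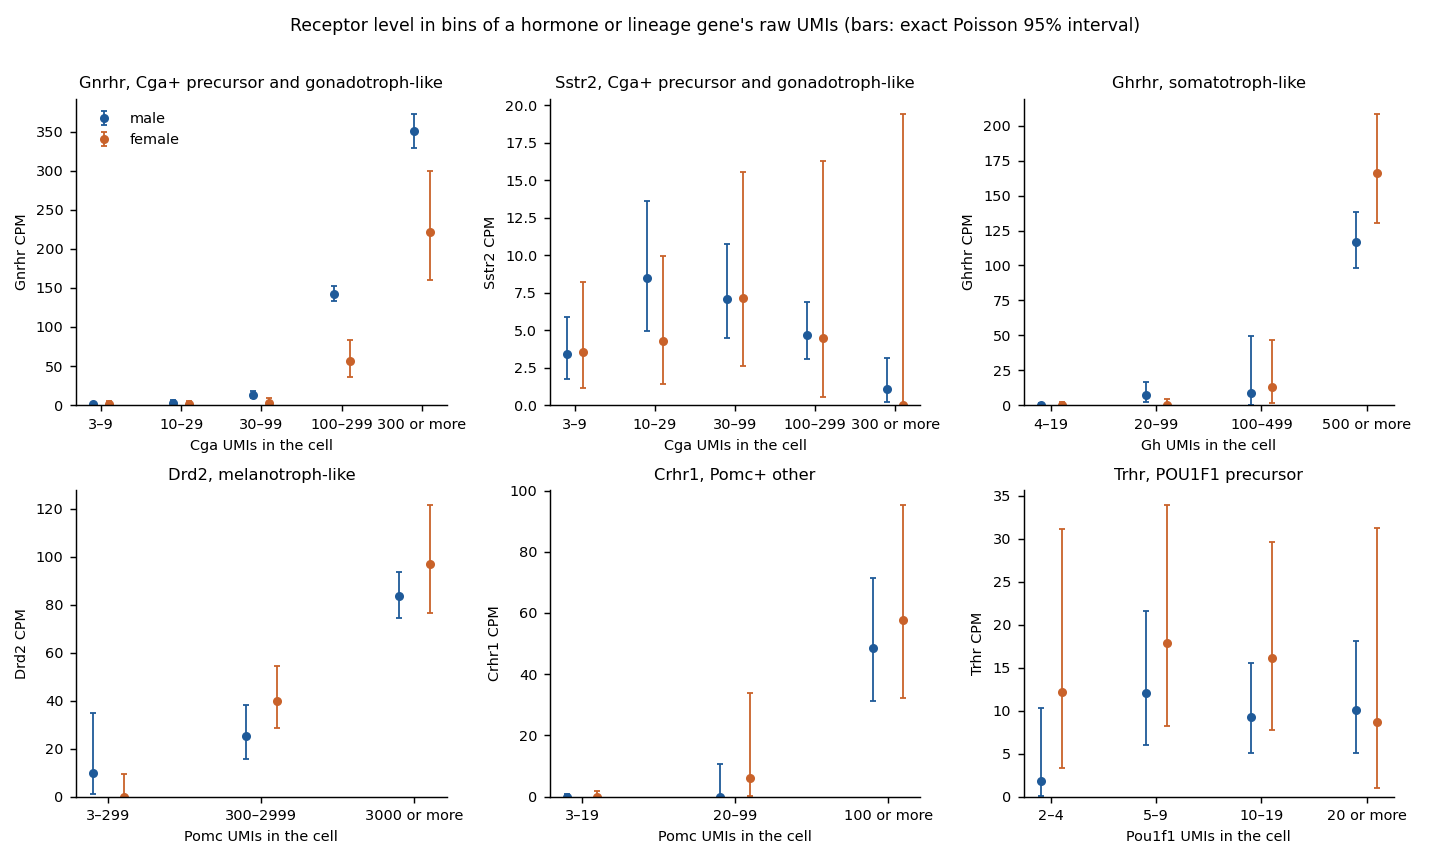
Receptor level (CPM, exact Poisson 95% intervals) in bins of the raw UMIs of a lineage gene per cell, for *Gnrhr* and *Sstr2* by *Cga*, *Ghrhr* by *Gh*, *Drd2* by *Pomc* in melanotroph-like cells, *Crhr1* by *Pomc* in other *Pomc*+ cells and *Trhr* by *Pou1f1*. *Gnrhr*, *Ghrhr*, *Drd2* and *Crhr1* are highest in the top bin of both libraries, whereas *Sstr2* drops in the top male *Cga* bin, is 0 in the 12 cells of the female one and *Trhr* shows no steady rise.

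The *Gnrhr* level differed between *Cga*-gated cells with and without a UMI of several gonadotroph genes. In the same *Cga*-gated cells, those with a UMI of *Nr5a1* (SF1, the gonadotroph nuclear receptor) held *Gnrhr* at 271 CPM in males, against 43.3 CPM in those without, and at 102 against 5.08 CPM in females. For *Neurod1*, a basic helix-loop-helix factor that binds E-boxes, the male values were 144 against 4.44 CPM and the female values 33.9 against 1.48 CPM. *Nr5a1* and *Lhb* took part in the gonadotroph-like gate but the split covers both classes together, and *Neurod1* took part in no gate. *Neurod1* was the broader of the pair, with a UMI in 851 of 1197 male and 143 of 288 female cells, against 301 and 34 for *Nr5a1*. Cells with a UMI of *Nhlh2* had 280 against 72.0 CPM in males and 138 against 11.4 CPM in females, and those with *Lhb* 722 against 60.4 and 249 against 13.0 CPM, the female value from 6 cells. The reverse held for the progenitor genes. Cells with *Lef1* had less *Gnrhr* than those without, 31.3 against 168 CPM and 1.54 against 46.5 CPM, and cells with *Sox2* had 34.6 against 200 CPM and 2.92 against 64.1 CPM. Cells with *Foxl2* had more *Gnrhr* than those without in males, at 115 against 64.6 CPM. In females the values were 16.2 against 23.1 CPM, the second from 21 UMIs in 4 cells. Their intervals overlapped, so that a difference by *Foxl2* was not detectable in females. For *Neurod4*, another basic helix-loop-helix factor, the level was the lower in cells that had it, at 58.0 against 119 CPM in males, while in females the intervals of 8.60 to 24.4 CPM with it and 14.1 to 24.2 CPM without it overlapped.

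The 250 bases before the start of *Gnrhr* and of *Sstr2* are shown, since these were the 2 receptors above background in *Cga*+ precursors. Other members, such as *Sstr3*, were also found in *Cga*-gated cells. Within the *Cga* gate *Sstr2* was at 4.64 CPM with and 4.88 CPM without *Neurod1* in males, and at 3.44 and 5.41 CPM in females. In differentiating cells it was at 6.15 CPM (0.745 to 22.2) with *Neurod1* and 2.92 CPM (1.85 to 4.38) without in males. The female values there were 15.6 CPM (4.25 to 39.9) and 2.81 CPM (1.61 to 4.57), those with *Neurod1* resting on 2 male and 4 female UMIs. Sequences are from RefSeq (GRCm38.p6, the mm10 assembly), at chr5:86197902-86198151 on the minus strand and chr11:113619077-113619326 on the plus strand, 5′ to 3′ along each gene. Capitals mark a match to the E-box CAGNTG on the opposite strand, at bases -194 to -189 before the *Gnrhr* start.
Gnrhr: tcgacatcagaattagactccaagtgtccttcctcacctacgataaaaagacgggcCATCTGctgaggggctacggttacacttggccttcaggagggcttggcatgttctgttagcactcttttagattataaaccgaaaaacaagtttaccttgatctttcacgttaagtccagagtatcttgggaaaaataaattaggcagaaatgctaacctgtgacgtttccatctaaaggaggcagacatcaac
Sstr2: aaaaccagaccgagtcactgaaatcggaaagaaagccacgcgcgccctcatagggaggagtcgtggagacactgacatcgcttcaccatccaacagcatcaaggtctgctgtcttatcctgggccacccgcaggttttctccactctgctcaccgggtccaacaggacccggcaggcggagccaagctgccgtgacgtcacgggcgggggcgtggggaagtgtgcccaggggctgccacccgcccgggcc
Both strands of the promoters that matched a member (6 of 10 receptors, 7 entries) were searched for 6 short motifs, 1 for each of 6 factors. They were AGGTCA for NR5A1, TAATCC for PITX1, ATGNATA for POU1F1, CAGNTG for NEUROD1, TCACACC for TBX19 and TGANTCA for AP-1. The E-box was found in 1 *Gnrhr* and 1 *Sstr3* entry and in 44.8% of all 32851 promoters of the same length, so that a match is common. AGGTCA was found in the *Ghsr* entry and in 14.0% of all promoters. The other motifs were found in 0 of the 7 entries. A match says only that the letters are there.

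**Figure D3:**
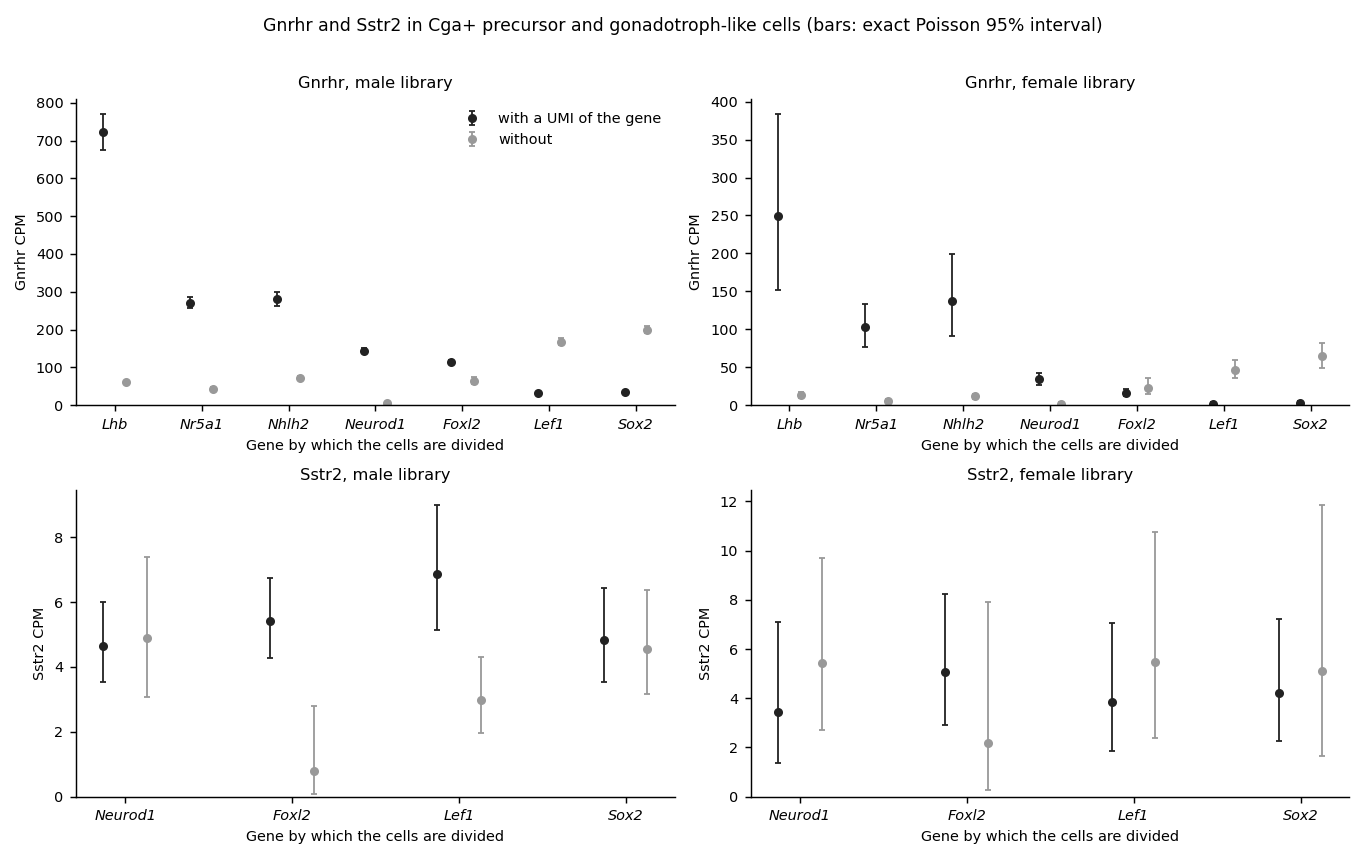
Level of *Gnrhr* and *Sstr2* (CPM, exact Poisson 95% intervals) in *Cga*+ precursor and gonadotroph-like cells with and without a UMI of 7 marker genes, for each library. *Gnrhr* is higher in cells with *Lhb*, *Nr5a1*, *Nhlh2* and *Neurod1* and lower in cells with *Lef1* and *Sox2* in both libraries, while the intervals of *Sstr2* with and without *Neurod1* overlap in these cells.

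The libraries differed in *Gnrhr* beyond counting error. The gonadotroph-like level was 2.93 times (2.06 to 4.30) higher in males, and *Gnrhr* was the 1 receptor with enough UMIs there to be compared. At least 2-fold higher in the male gonadotroph-like cells were 11.8% of 9701 features. The *Cga*+ precursor level was 4.66 times (3.39 to 6.58) higher in males. Within the 2 highest *Cga* bins the gap was smaller. It was 2.53 times (1.70 to 3.93) at 100 to 299 *Cga* UMIs, from 379 male and 29 female cells, and 1.58 times (1.16 to 2.21) at 300 or more, from 147 and 12 cells. At 30 to 99 *Cga* UMIs it was 5.55 times (1.44 to 47.4), from few UMIs. In gonadotroph-like cells *Cga* itself was nearly equal, at 19054 CPM in males and 19305 CPM in females. Some other gonadotroph genes were higher in the 15 female cells than in the 157 male ones. They were *Lhb* at 880 against 319 CPM, *Fshb* at 456 against 98.5 CPM, *Tgfbr3l* at 226 against 58.5 CPM and *Neurod1* at 1660 against 807 CPM. The female *Lhb* and *Fshb* UMIs lay in only 6 and 3 cells. *Nr5a1* and *Foxl2* were slightly lower in females, at 103 against 113 CPM and 202 against 222.5 CPM. The part of these differences in the *Gnrhr* ratio was not tested.

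The GHRH receptor drives growth hormone release and somatotroph expansion. *Ghrhr* (ENSMUSG00000004654, chr6:55376295-55388530, plus strand) was all but limited to growth hormone cells. Somatotroph-like cells held 30.2 CPM (25.4 to 35.6) in males, from 142 UMIs in 47 of 252 cells (18.7%, thinned 9.64% with an interval of 6.27 to 14.0). The female level was 22.7 CPM (17.8 to 28.4), from 75 UMIs in 27 of 253 cells (10.7%, thinned 5.60% with an interval of 3.10 to 9.22). The other endocrine classes together held 5 male UMIs and 0 female UMIs, and stem cells 2 and 0. Endocrine cells exceeded stem cells 68.7-fold (18.7 to 572) in males, and at least 60.9-fold in females with 3 counts taken for the stem cells.

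*Ghrhr* was concentrated in the cells with most *Gh*. With 500 or more *Gh* UMIs, 44 of 48 male cells (91.7%) and 25 of 27 female cells (92.6%) had the receptor, at 117 CPM (98.1 to 138) and 166 CPM (130 to 209). Below 20 *Gh* UMIs no somatotroph-like cell of either library had it. These top cells held less *Sox2*, with 230 CPM in males and 36.4 CPM in females, against class values of 420 and 549 CPM. They were also deep, with medians of 24420 and 15109 UMIs against 16107 and 11027 in the class. Here the female level was the higher, at a male to female ratio of 0.704 (0.526 to 0.949), while the ratio over the whole class was 1.33 (0.999 to 1.78), so that the direction depended on which *Gh*+ cells were summed. With another depth minimum the levels over the whole class lay close together. They were 22.6 CPM in males and 22.8 CPM in females with at least 5000 UMIs, and 21.5 and 23.5 CPM with no minimum.

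*Sstr5* and *Ghsr* act on the same cells, the first as a brake on growth hormone release and the second as the receptor for ghrelin. *Sstr5* (ENSMUSG00000050824, chr17:25489875-25497288, minus strand) had 9 UMIs in 7 male somatotroph-like cells, of which 8 UMIs lay in 6 of the 48 cells with most *Gh* (6.88 CPM). None was found in the 27 such female cells, with an upper bound of 8.39 CPM, so that a sex difference was not detectable at this depth. Of the 7 cells, 6 also had a UMI of *Ghrhr* and 1 of *Sstr3*. *Ghsr* (ENSMUSG00000051136, chr3:27371351-27378010, plus strand) gave 3 UMIs in males and 2 in females, too few to place. They fell in somatotroph-like cells (1 and 1), in *Pomc*+ cells without melanotroph genes (1 and 1) and in 1 male multiple-gate cell.

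TRH releases thyroid-stimulating hormone and prolactin. *Trhr* (ENSMUSG00000038760, chr15:44196135-44235912, plus strand) was found in several *Pou1f1*+ classes. POU1F1 precursors, which have *Pou1f1* but no hormone gate, held 9.12 CPM (6.42 to 12.6) in males, from 37 UMIs in 33 of 300 cells. The female level was 14.8 CPM (9.60 to 21.9), from 25 UMIs in 19 of 144 cells. The thyrotroph lineage held 8.96 CPM (6.09 to 12.7) and 13.2 CPM (6.59 to 23.6), and the intervals overlapped with those of the precursors. In males 25 of its 31 UMIs lay in the 180 cells with 0 *Tshb* UMIs. Somatotroph-like cells were low, at 1.28 CPM (6 UMIs) and 0.908 CPM (3 UMIs), and those with at least 500 *Gh* UMIs had none, with upper bounds of 3.17 and 8.39 CPM. Male lactotroph-like cells stood at 9.04 CPM on 6 UMIs in 4 of 45 cells, and the 7 female cells had none.

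*Trhr* was thus present in cells whose *Tshb* had not passed its gate. In POU1F1 precursors with a UMI of *Tshb* the male and female levels were 14.6 and 26.0 CPM, and in those without they were 8.62 and 12.7 CPM. Precursors with *Sox2* had 7.98 CPM against 10.6 CPM without in males, and 8.01 against 24.8 CPM in females. The intervals of each of these pairs overlapped. In the female thyrotroph lineage 8 of the 11 UMIs came from the 3 cells with 30 or more *Tshb* UMIs. *Trhr* gave 0 UMIs in *Cga*+ precursors, gonadotroph-like cells and *Lef1*+ cells of both libraries. Stem cells held 2 male and 5 female UMIs, and 4 of the 5 came from 1 *Ednrb*+ cell.

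CRH and vasopressin drive corticotrophs through CRHR1 and the V1b receptor. *Crhr1* (ENSMUSG00000018634, chr11:104132855-104175523, plus strand) was found in *Pomc*+ cells without melanotroph genes, at 4.16 CPM (2.69 to 6.14) in males and 6.55 CPM (3.75 to 10.6) in females. These levels came from 25 UMIs in 15 of 260 cells and 16 UMIs in 12 of 166 cells. All 25 male and 15 of the 16 female UMIs lay in the cells with at least 100 *Pomc* UMIs. In these 32 male and 20 female cells the level was 48.5 CPM (31.4 to 71.6) and 57.8 CPM (32.3 to 95.3), and 46.9% and 55.0% of them had the receptor. Melanotroph-like cells, which hold more *Pomc* still, had 0 *Crhr1* UMIs in both libraries. With the *Pomc* gate at double its threshold, the class level was 15.9 CPM in males and 16.8 CPM in females.

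*Avpr1b* (ENSMUSG00000026432, chr1:131599239-131612000, plus strand) was above background in no class, and its few UMIs in single-gate cells lay in the same small set. Its 3 male and 3 female UMIs in classed single-gate cells were all in *Pomc*+ cells without melanotroph genes and with at least 100 *Pomc* UMIs, at 5.82 and 11.6 CPM. The remaining male UMI was in a multiple-gate cell. *Crhr1* and *Avpr1b* occurred together in 1 cell of each library. The corticotroph factor *Tbx19* stood at 8.15 and 14.3 CPM over the whole *Pomc*+ class, below the 47.2 and 75.6 CPM of melanotroph-like cells.

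Dopamine holds back prolactin in lactotrophs and the secretion of melanotrophs through DRD2. *Drd2* (ENSMUSG00000032259, chr9:49340627-49408177, plus strand) was highest, among classes of at least 20 cells in both libraries, in melanotroph-like cells, at 69.5 CPM (62.1 to 77.5) in males and 53.3 CPM (44.1 to 63.9) in females. A UMI was found in 113 of 193 male cells (58.5%) and 44 of 128 female cells (34.4%), and after thinning in 21.0% (15.4 to 27.5) and 15.6% (9.81 to 23.1). The male cells were deeper, with a median of 23032 UMIs against 15057.5 in females, and the shares lay closer together after thinning. Over the whole class the male to female ratio of the level was 1.30 (1.05 to 1.62), but the direction depended on which cells were summed, as given next.

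Inside the melanotroph-like class *Drd2* was highest in the cells with most *Pomc*. From below 300 to 300 to 2999 and at least 3000 *Pomc* UMIs it stood at 9.70, 25.2 and 83.7 CPM in males and at 0, 40.0 and 97.2 CPM in females. In the top bin 81.4% of 118 male and 83.3% of 30 female cells had the receptor, at median depths of 28569.5 and 25344 UMIs. By contrast, the other *Pomc*+ cells had 0 *Drd2* UMIs in 260 male and 166 female cells. *Crhr1* and *Drd2* therefore divided the *Pomc* cells, each with no UMI in the class that held the other. All but 1 of the *Crhr1* UMIs of that class lay in 32 male and 20 female cells with at least 100 *Pomc* UMIs. In these the 0 *Drd2* UMIs allow up to 7.15 and 14.2 CPM.

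Lactotroph-like cells were the other *Drd2* class, at 34.7 CPM (22.0 to 52.0) from 23 UMIs in 15 of 45 male cells and 32.2 CPM (6.65 to 94.2) from 3 UMIs in 2 of 7 female cells. The 4 male cells that met both the *Prl* and the *Gh* gate stood higher than melanotroph-like cells, at 82.0 CPM (26.6 to 191), on 5 UMIs in 3 cells. POU1F1 precursors held 3.21 CPM (13 UMIs) and 2.97 CPM (5 UMIs). In the male precursors, 6 of the 13 UMIs were in the 11 cells that had a UMI of *Prl*, where the level was 45.1 CPM against 1.78 CPM in those without. Somatotroph-like cells, of the same lineage, had 0 *Drd2* UMIs in both libraries. Differentiating cells held 9 and 3 UMIs and stem cells 2 and 3.

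**Figure D4:**
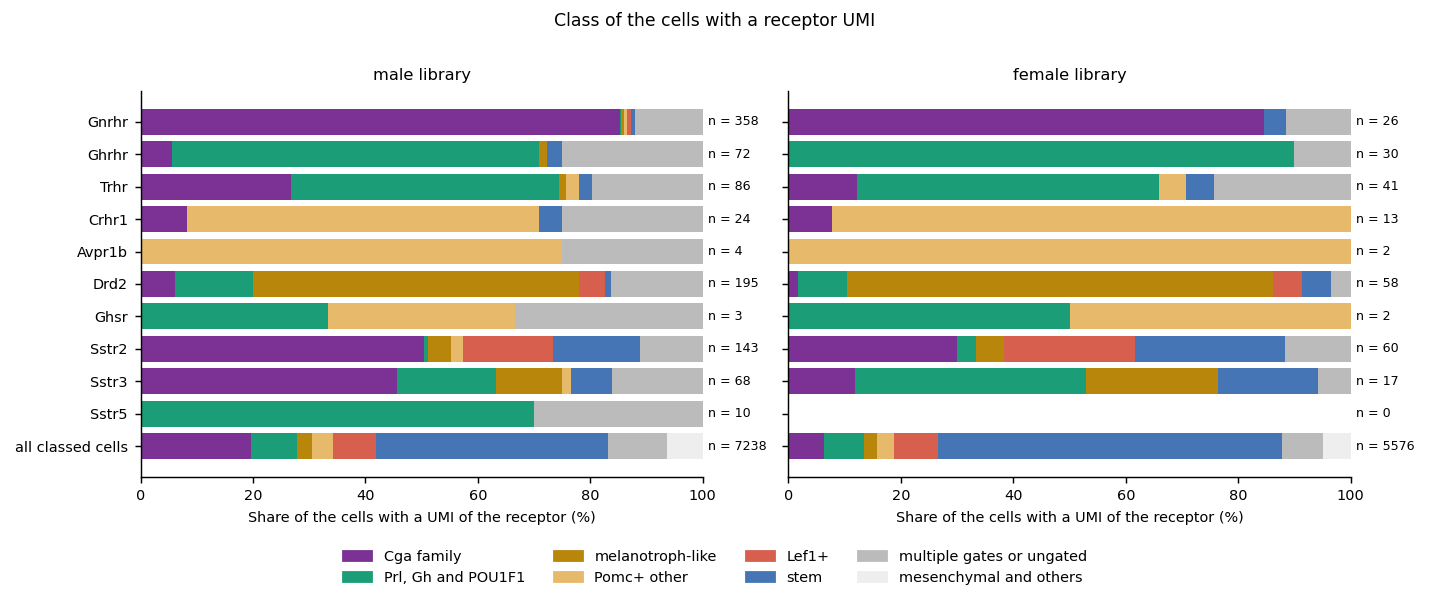
Share of the cells with a UMI of each receptor that falls in each class, for the male and the female library, with the make-up of all classed cells below. Stem cells are the largest part of all classed cells in both libraries (2987 of 7238 and 3406 of 5576) but a small part of the cells positive for *Gnrhr*, *Ghrhr*, *Crhr1* and *Drd2*.

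Somatostatin receptors did not share a pattern. *Sstr2* (ENSMUSG00000047904, chr11:113619342-113626028, plus strand) was the 1 member above background in differentiating cells, which had passed neither a hormone gate nor the *Pou1f1* gate. The gene *Slc39a11* overlaps it on the other strand. *Cga*+ precursors held 5.33 CPM (4.20 to 6.66) from 77 UMIs in 67 male cells and 4.67 CPM (2.77 to 7.38) from 18 UMIs in 16 female cells. Differentiating cells held 3.05 CPM (1.97 to 4.50) and 3.37 CPM (2.06 to 5.20). Stem cells as a whole held 0.712 CPM (0.469 to 1.04) and 0.589 CPM (0.365 to 0.900), not above the mesenchymal bounds. The rise from stem to endocrine cells was the smallest of the 7 tested members, 3.25-fold (2.10 to 5.19) and 3.01-fold (1.63 to 5.64). Of the stem classes, only the one without *Ednrb*, *Aldh1a2* or cycling genes had a clear male level, 5.95 CPM (3.47 to 9.53), and its female level of 2.82 CPM (1.22 to 5.56) was not above background.

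*Sstr2* appeared with the first *Lef1* UMI. In stem and differentiating cells with 0, 1, 2 to 3 and at least 4 *Lef1* UMIs it stood at 0.330, 3.50, 3.15 and 2.84 CPM in males and at 0.341, 2.93, 3.00 and 4.13 CPM in females. The level did not differ beyond counting error among cells with *Lef1*, and the intervals of all these values lay above those of cells without it, whose upper bounds were 0.590 and 0.611 CPM. Single classes did not all show this. Stem cells without *Ednrb*, *Aldh1a2* or cycling genes held 9.94 CPM with *Lef1* and 2.58 CPM without in males, and 2.75 and 2.87 CPM in females. *Cga*-gated cells held 6.86 against 2.97 CPM in males and 3.84 against 5.47 CPM in females. Of these pairs, only the male *Cga*-gated one had intervals that were apart. *Lef1* encodes a mediator of WNT signalling. Along the *Cga* bins *Sstr2* stayed between 3.38 and 8.50 CPM in males up to 299 *Cga* UMIs and was 1.07 CPM in the highest bin, and in females it stayed between 3.52 and 7.16 CPM and was 0 in the highest. In *Cga*-gated cells, *Sstr2* stood at 5.41 CPM with *Foxl2* and 0.774 CPM without it in males, and at 5.07 and 2.20 CPM in females. In differentiating cells the values were 4.28 against 2.13 CPM and 6.63 against 1.57 CPM. The intervals were apart for male *Cga*-gated and female differentiating cells and overlapped for the others. *Foxl2* encodes a forkhead factor of the gonadotroph and thyrotroph lineages.

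In the male *Cga* lineage *Sstr2* was lower where *Gnrhr* was present. *Cga*-gated male cells with *Gnrhr* held *Sstr2* at 1.70 CPM (0.732 to 3.34), against 5.86 CPM (4.59 to 7.38) in those without. The overlap was still wide, since at 100 to 299 *Cga* UMIs, where 44.1% of male cells had *Gnrhr*, *Sstr2* stood at 4.68 CPM. Male gonadotroph-like cells held 1.18 CPM of *Sstr2* (3 UMIs). In females *Sstr2* was at 4.81 CPM (2.85 to 7.60) in cells without *Gnrhr* and at 0 in the 21 cells with it, in the 12 of the highest *Cga* bin and in the 15 gonadotroph-like cells. The upper bounds of 11.4, 19.5 and 17.4 CPM lie above that level, so that a difference was not detectable in females. The pair was detected together in 8 male cells and 0 female cells.

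*Sstr3* (ENSMUSG00000044933, chr15:78537008-78544685, minus strand) was found in several endocrine classes. In males it was highest in gonadotroph-like cells, at 6.67 CPM (3.89 to 10.7) from 17 UMIs, while the female level rested on 1 UMI. It gave 0 UMIs in the *Lef1*+ cells of both libraries. Melanotroph-like cells held 1.72 and 1.82 CPM, and the cells with at least 500 *Gh* UMIs 3.44 and 13.6 CPM. In single-gate cells *Sstr3* was found together with *Gnrhr* in 22 male cells and 1 female cell, with *Drd2* in 11 and 4, and with *Ghrhr* in 4 and 5.

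For each receptor with at least 50 UMIs, the genes with the most similar levels were taken over 28 class and library values (Pearson's r of log2(CPM + 1)). These points share libraries and depth, and r is a description. For *Ghrhr* the closest gene was *Gh* itself (r = 0.981), followed at a distance by 5330439M10Rik (0.819), *Pappa2* (0.725), *Cd79a* (0.705) and *Wfdc1* (0.693). *Gnrhr* was closest to *Gnat3*, a transducin-like G protein alpha subunit (0.968), the cardiac actin *Actc1* (0.963), the peptidase *Mmel1* (0.960), 3110004A20Rik (0.955) and the ribonuclease *Rnase1* (0.952), over values that include the male but not the female gonadotroph-like class. *Trhr* was closest to *Rasl10a* (0.969), Gm32647 (0.968), Gm14618 (0.968), *Cpne9* (0.967) and the bile acid receptor *Nr1h4* (0.958). *Drd2* was closest to *Scoc* (0.910), *Vgf*, a secreted granule protein (0.891), *Crem*, a cyclic AMP-responsive factor (0.874), *Nrsn2* (0.870) and *Pou2f2* (0.869). *Sstr2* was closest to *Eipr1* (0.901), *Cnpy1* (0.891), 4833445I07Rik (0.890), *Pomgnt1* (0.874) and *Tmtc4* (0.873). *Sstr3* was closest to *Ass1* (0.857), *Cacng8* (0.839), *Lrrc10b* (0.837), *Tmem179* (0.830) and 1700064M15Rik (0.830). For *Crhr1* no gene came near, and *Rprml* (0.536), *Agbl5* (0.533), *Usp36* (0.529) and *Ankrd17* (0.522) were the closest.

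The machinery downstream of the receptors was not absent from stem cells. Of 28 genes for G proteins and effectors, 27 had enough UMIs, and 7 were at least 2-fold higher in endocrine than stem cells in both libraries (background 9.96%), 2 were at least 2-fold lower and 20 passed 20 CPM in some class. *Gnas*, the Gs alpha subunit, stood at 12529 and 11176 CPM in endocrine cells and 7946 and 7604 CPM in stem cells. *Gnai2*, which couples the inhibitory receptors, stood at 221 and 231 CPM against 319 and 310 CPM. *Gna11*, of the Gq family, stood at 104 and 88.4 CPM against 85.5 and 79.3 CPM, and *Gnai3* at 101 and 91.0 CPM against 103 and 93.0 CPM. *Rgs2*, a regulator that shortens Gq signals, stood at 262 and 314 CPM against 646 and 613 CPM, and *Gnao1* at 72.8 and 66.5 CPM against 35.2 and 43.8 CPM. The genes that were at least 2-fold lower were *Adcy1* and *Itpr2*. One potassium channel gene was singled out after its values were seen. *Kcnj6*, whose channel is opened by Gi-coupled receptors such as DRD2, was highest in melanotroph-like cells, at 29.4 and 36.5 CPM, where *Drd2* stood at 69.5 and 53.3 CPM.

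Of 26 other receptors for pituitary regulators, 12 had enough UMIs, 5 were at least 2-fold higher in endocrine cells, 1 was lower and 0 passed 20 CPM in any class. The 5 higher ones, named because they are few, were *Sstr1*, *Npy1r*, *Tacr3*, *Mc4r* and *Prlhr*, and the lower one was *Vipr2*. *Sstr1* was highest in melanotroph-like cells, at 17.6 CPM (14.0 to 21.8) and 14.6 CPM (9.97 to 20.6), and unlike the members it had UMIs in mesenchymal cells, at 3.65 and 3.47 CPM. *Vipr2*, a receptor for vasoactive intestinal peptide, stood at 0.689 and 1.16 CPM in endocrine and 1.79 and 2.58 CPM in stem cells.

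The ligand genes were close to silent in this fraction, with 10 UMIs of *Gnrh1* over both libraries, 11 of *Ghrh*, 15 of *Trh*, 0 of *Crh*, 8 of *Avp*, 17 of *Sst*, 3 of *Ghrl*, 13 of *Cort* and 4 of the dopamine synthesis gene *Th*. None had enough UMIs for a comparison of endocrine and stem cells. The 7 hormone genes that the receptors serve were all at least 2-fold higher in endocrine cells. The gates on *Cga*, *Tshb*, *Prl*, *Gh* and *Pomc* impose this for those genes, while *Lhb* and *Fshb* only took part in dividing the *Cga*-gated cells. Of 13 transcription factors of the lineages, 10 were higher by the same fold and 0 lower (background 9.96%). The gate on *Pou1f1* imposes its difference too, and *Nr5a1* and *Pax7* took part in dividing the hormone-gated cells. The count is therefore a description and not a test. Among those with the highest levels were *Egr1*, *Pou1f1*, *Neurod1*, *Isl1* and *Pitx1*. *Egr1*, an immediate early gene that GnRH induces, was not higher in endocrine cells, at 896 and 1029 CPM against 1270 and 1309 CPM in stem cells. *Neurod1* stood at 364 and 249 CPM against 2.35 and 2.08 CPM, and *Pou1f1* at 234 and 183 CPM against 1.98 and 0.982 CPM. *Isl1* was higher by less, at 211 and 166 CPM against 78.7 and 78.3 CPM, and *Pitx1*, which marks the whole anterior pituitary, stood at 316 and 265 CPM against 192 and 198 CPM and did not reach the fold.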

How the data were processed

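The authors aligned the reads of each 10x library with Cell Ranger 3.0.2 to mm10 with an eGFP sequence added, and deposited raw UMI counts per gene and barcode, which are not normalized. Later steps of the study used R 3.6.0 and Seurat (versions 3 and 4), and their output was not used here. The members and gene lists were chosen with earlier results of these data known.

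From the counts, barcodes with fewer than 50 genes or a mitochondrial share over the mean plus 3 SD were removed. Cells with at least 3000 UMIs were classed by raw marker UMIs, with no clustering. Hormone gates needed at least 3 UMIs and more than the 99th percentile of the mesenchymal cells of that library (*Cga*, *Tshb* and *Prl* 3 in both libraries, *Gh* 4 male and 5 female, *Pomc* 6 and 3). Further gates were at least 2 UMIs of gonadotroph genes, *Pou1f1*, melanotroph genes, *Lef1* or *Sox2*. A *Cga*-gated cell with 2 or more gonadotroph and 2 or more *Pou1f1* UMIs was put in the gonadotroph-like class unless it passed the *Tshb* gate. Doublets were not removed. Scrublet, run in Scanpy 1.11.5, marked 867 male and 261 female barcodes kept by the filters for an alternative. Of these, 395 male and 3 female barcodes had fewer than 3000 UMIs and were not classed. Levels carry exact Poisson and shares exact Clopper-Pearson 95% intervals, and ratios exact conditional binomial ones, computed with SciPy 1.17.1. Shares were thinned to 5000 UMIs. With 1 library per sex no p-value is given, and the fold rule needed at least 20 UMIs over both libraries. On simulated counts the fold rule was tested with known changes before use. Named were all members, the 5 genes most like each, and up to 6 genes per list past 20 CPM by level. A few genes that this rule names are not reported here. Gene positions come from GENCODE vM21. The alternatives were other depth minimums, a stricter hormone gate, no doublets, no mitochondrial filter, multiple-gate cells kept, other thinning, another fold, another UMI minimum and another background.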

Additional observations from a re-analysis of the deposited data

Results flagged for a closer look

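Receptor UMIs also occurred in the 3172 male barcodes with fewer than 3000 UMIs (median 1200.5), which entered no comparison, at levels above the 0 UMIs of mesenchymal cells. *Gnrhr* stood there at 19.1 CPM (81 UMIs), *Drd2* at 5.43 CPM (23 UMIs), *Ghrhr* at 1.89 CPM (8 UMIs), *Sstr2* at 1.42 CPM (6 UMIs) and *Sstr3* at 1.18 CPM (5 UMIs). The 135 such female barcodes held 0 UMIs of *Gnrhr*, *Drd2*, *Sstr2* and *Sstr3*, with an upper 95% bound of 17.1 CPM for each, and 3 UMIs of *Ghrhr*, at 13.9 CPM (2.87 to 40.7). What these barcodes contain was not tested.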

How the results depend on the processing

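The number of receptors above background stayed at 6 in endocrine, 1 in differentiating and 0 in stem classes under each depth, gate, doublet and mitochondrial setting. With stem cells as the background it was 8 in endocrine classes. The 7 fold calls became 6 at 4-fold and 6 at a minimum of 50 UMIs. The male *Gnrhr* level in gonadotroph-like cells was 410 CPM at double the hormone gate and 399.9 CPM with multiple-gate cells kept, against 441 CPM. The thinned share was 48.4% at 3000 UMIs and 73.9% without thinning, against 60.5%. Among levels, *Crhr1* in *Pomc*+ cells without melanotroph genes moved most, to 15.9 CPM (male) and 16.8 CPM (female) at double the gate and to 17.6 CPM (male) with no depth minimum, and male *Ghrhr* in somatotroph-like cells ranged from 21.5 CPM with no depth minimum to 42.7 CPM at double the gate. Other shares depended on thinning, with *Sstr3* in male gonadotroph-like cells at 3.95% at 5000 UMIs and 0.637% at 3000, and *Sstr2* in female *Cga*+ precursors at 1.10% thinned and 5.86% not thinned. The cause was not tested. No fold or background call reversed. For *Ghrhr* in somatotroph-like cells the higher male level was lost, from 30.2 CPM in males and 22.7 CPM in females to 22.6 and 22.8 CPM at a depth minimum of 5000 UMIs. The bins by hormone UMIs and the smaller class minimum of 5 cells were chosen after seeing the data. No paired analysis was possible because there is 1 library per sex and the labels carry no replicate numbers. Depth limits *Avpr1b*, *Ghsr* and *Sstr5*, and the 15 gonadotroph-like and 7 lactotroph-like female cells limit every comparison between the libraries in those classes.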

Other observations

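Multiple-gate cells, which entered no class, held *Gnrhr* at 40.1 CPM (270 UMIs) in 283 male cells and 2.94 CPM (4 UMIs) in 69 female cells, *Drd2* at 10.1 CPM (68 UMIs) and 1.47 CPM (2 UMIs), and *Ghrhr* at 6.23 CPM (42 UMIs) and 8.83 CPM (12 UMIs). Among them, 60 male and 9 female cells were marked by Scrublet.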
